A study of Homo sapiens with 2 samples.

Results

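Human chromosome 19 holds the largest collection of C2H2 zinc finger genes in the genome, and the genes described here are those protein-coding genes of that chromosome whose symbol begins with ZNF. A gene was taken when 1 of its ends lay on a bait fragment, the captured HindIII fragment in the first columns of either deposited interaction list. By this rule 123 of 250 such genes were measured, on 113 bait fragments, among 13721 genes measured over the whole series. The choice rested on gene position and on being listed, so every measured gene has at least 1 interaction by construction. The other 127 have no listed bait fragment and were not analysed here.

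Contacts were recorded by promoter-capture Hi-C, in which ligated HindIII fragments are enriched for those with a promoter at an end. K562 cells, a chronic myelogenous leukaemia line with the BCR-ABL1 fusion, were kept for 24 h in DMSO, the vehicle, or in 100 nM ponatinib, which inhibits the fused kinase; each group is 1 library of the same cell line. No test of the treatment exists with 1 library per group, no difference below has a replicate check, and read depth is unknown. The lists held 84049 interactions in DMSO and 91305 in ponatinib, and pairs between chromosomes 9 and 22, which the fusion joins, numbered 1654 and 1781. All intervals are 95% intervals, exact binomial for shares and from order statistics for medians, and cover counting error only; pairs of neighbouring fragments are not independent, and contacts do not measure expression.

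Zinc finger proteins of this family bind DNA through arrays of C2H2 fingers. Many of those encoded on chromosome 19 also carry a KRAB domain, which recruits the corepressor TRIM28 and, through it, the histone methyltransferase SETDB1, and many silence transposable elements. The genes arose by tandem duplication, so neighbours in a cluster are often paralogs of similar sequence.

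Clusters were set as runs of at least 3 ZNF genes with no gap over 500 kb, which gave 4 clusters on the short arm (19p) and 7 on the long arm (19q). Listing was uneven between them. On 19p, 26 of 84 ZNF genes were measured, and on 19q 97 of 166. In the cluster next to the centromere on 19p (19p cluster 4, ZNF101 to ZNF254, 19668153 to 24129968, hg38), 5 of 37 genes were measured. In the cluster closest to the end of 19q (19q cluster 7, ZNF264 to ZNF446, 57191500 to 58489533), 31 of 43 were. The 11 ZNF genes outside clusters gave 8 measured genes, among them ZNF507, ZNF574 and ZNF473. The symbol rule also took ZNF470-DT and the readthrough gene ZNF559-ZNF177, which the gene table marks as protein-coding.

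**Figure D1:**
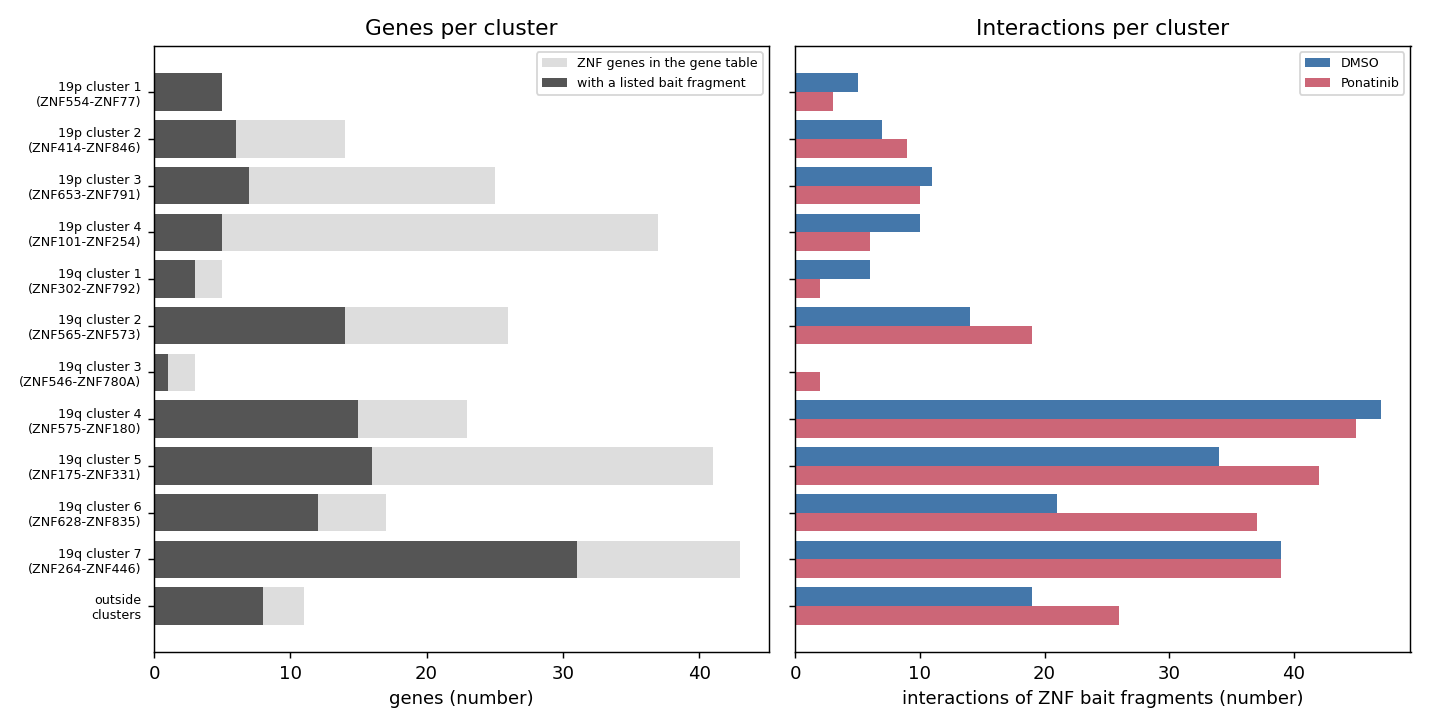
The left panel shows the number of ZNF genes per cluster on chromosome 19 (light) and of those with a listed bait fragment (dark), and the right panel the number of interactions of their fragments in the DMSO and ponatinib lists, with 1 library each and therefore no error bar. Most interactions are in the 19q clusters 4 to 7, while 19p cluster 4 has 37 genes, 5 measured, and 10 interactions in DMSO and 6 in ponatinib.

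The promoters of 6 genes that carry the results below are printed here, 250 bases before to 50 after the annotated start, 5′ to 3′, from RefSeq (GRCh38.p14). Capitals mark matches to an ETS motif (CCGGAAGT) or an SP motif (GGGCGG), on either strand. ZNF175 had the most interactions (chr19:51571033-51571332, plus strand). ZNF432 (chr19:52048512-52048811, minus strand) and ZNF616 (chr19:52139889-52140188, minus strand) form the pair of highest score inside a cluster in DMSO. ZNF180 (chr19:44500473-44500772, minus strand) stands at the edge of 19q cluster 4 and reached back across it. ZNF714 (chr19:21081953-21082252, plus strand) and ZNF681 (chr19:23758842-23759141, minus strand) represent 19p cluster 4, where 4 of the 5 measured promoters resemble each other.
ZNF175: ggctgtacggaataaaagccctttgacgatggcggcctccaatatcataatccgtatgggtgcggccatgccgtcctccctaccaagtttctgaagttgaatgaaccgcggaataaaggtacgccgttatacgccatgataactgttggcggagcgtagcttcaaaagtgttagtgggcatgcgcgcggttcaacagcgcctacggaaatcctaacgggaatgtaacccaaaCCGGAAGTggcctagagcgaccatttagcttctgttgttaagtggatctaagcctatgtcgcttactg
ZNF432: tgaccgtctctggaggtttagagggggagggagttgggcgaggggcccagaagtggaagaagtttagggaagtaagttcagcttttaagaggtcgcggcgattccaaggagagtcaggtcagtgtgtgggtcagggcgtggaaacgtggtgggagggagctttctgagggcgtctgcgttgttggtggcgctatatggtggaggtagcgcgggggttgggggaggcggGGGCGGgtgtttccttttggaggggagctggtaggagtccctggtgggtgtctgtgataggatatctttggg
ZNF616: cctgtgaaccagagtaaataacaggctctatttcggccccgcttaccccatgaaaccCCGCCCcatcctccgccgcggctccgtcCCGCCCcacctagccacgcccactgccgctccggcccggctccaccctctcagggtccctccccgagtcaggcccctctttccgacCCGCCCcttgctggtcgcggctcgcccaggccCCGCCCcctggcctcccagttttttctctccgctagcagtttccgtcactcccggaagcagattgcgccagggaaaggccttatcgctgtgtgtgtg
ZNF180: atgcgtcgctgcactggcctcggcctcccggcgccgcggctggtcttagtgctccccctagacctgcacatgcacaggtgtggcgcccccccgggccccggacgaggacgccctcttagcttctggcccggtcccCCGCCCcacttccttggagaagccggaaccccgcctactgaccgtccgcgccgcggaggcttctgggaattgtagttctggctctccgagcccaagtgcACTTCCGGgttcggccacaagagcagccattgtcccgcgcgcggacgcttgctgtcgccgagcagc
ZNF714: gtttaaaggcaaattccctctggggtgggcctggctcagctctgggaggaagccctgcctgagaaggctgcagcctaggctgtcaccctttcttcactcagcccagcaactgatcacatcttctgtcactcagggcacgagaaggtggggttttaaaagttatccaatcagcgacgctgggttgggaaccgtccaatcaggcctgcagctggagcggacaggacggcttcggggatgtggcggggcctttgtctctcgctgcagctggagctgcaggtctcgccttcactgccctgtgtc
ZNF681: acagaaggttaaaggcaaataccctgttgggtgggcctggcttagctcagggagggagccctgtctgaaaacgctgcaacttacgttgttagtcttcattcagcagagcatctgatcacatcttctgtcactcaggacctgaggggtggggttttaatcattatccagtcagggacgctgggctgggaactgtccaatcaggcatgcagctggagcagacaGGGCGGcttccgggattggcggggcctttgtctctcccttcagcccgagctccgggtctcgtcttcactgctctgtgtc

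Of the measured genes, 110 had a promoter in the RefSeq table. Their median GC content was 60.3% with 21 CpG dinucleotides per 300 bases, beside 62.3% and 21 over 15841 protein-coding promoters. In the 5 promoters of 19p cluster 4 the median was 10 CpG. The ETS motif was present in 24 of the 110 (21.8%), in 16.5% of 109 promoters of chromosome 19 ZNF genes without a listed bait, in 4.35% of 966 other promoters of the chromosome and in 5.85% of all. Of these 24, 15 were in 19q cluster 7, where 30 promoters were searched, and none was on 19p. ZNF134, ZNF256, ZNF264, ZNF530, ZNF547 and ZNF606 are examples. The median number of interactions over both lists was 3.5 for genes with the motif and 3 for those without. The SP motif was in 57.3% of the 110, in 75.2% of the ZNF genes without a listed bait, in 65.6% of the other promoters of the chromosome and in 56.65% of all, and no SP match overlapped an ETS match in these genes. A YY1 motif (AAGATGGCG) was in 4.55%, beside 2.66% of all. It was in 2.75% of the ZNF genes without a listed bait and 4.14% of the other promoters of the chromosome. A TATA motif (TATAAA) was in 0 of the 110, beside 10.2% of all. It was in 5.5% of the ZNF genes without a listed bait and 7.87% of the other promoters of the chromosome. Both motifs were searched on either strand. A match is a run of letters in this window and no evidence of binding. Over the 5995 pairs of these promoters the median identity in a global alignment was 59.0%, and 4 pairs exceeded 80%. In 19p cluster 4, ZNF254, ZNF492, ZNF681 and ZNF714 were 79.7 to 83.7% identical to each other, and ZNF101 was 60.3 to 62.7% identical to these. The 4 pairs over 80% were ZNF587B with ZNF814 (91.3%), ZNF681 with ZNF714 (83.7%), ZNF492 with ZNF714 (81.3%) and ZNF254 with ZNF714 (80.7%). Identity was measured in these windows of 300 bases only, and not over the bait fragments. Reads from closely similar copies can be placed on the wrong copy or discarded, and the part this plays in the lists was not tested.

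The ZNF genes had few interactions. Their fragments took part in 213 distinct interactions with DMSO and 240 with ponatinib. The ratio was 1.13 (0.933 to 1.36), beside 1.09 for the whole lists. The median gene had 2 in each list and 3 over both, and the quartiles were 2 and 5.5. Other chromosome 19 genes had a median of 6 over both lists (740 genes) and all genes a median of 9. In DMSO 23 of the 123 genes had no interaction, and in ponatinib 19 had none. Among the 740 other chromosome 19 genes 84 and 47 had none, and among all 13721 genes 1004 and 860. Per fragment the median over both lists was 3, against 5 for the 618 other bait fragments of the chromosome and 7 for all 17883, and their median length was 6757 bp against 10392 and 6585. The 57 bait fragments that lie inside the cluster spans but hold no end of a ZNF gene had a median of 4, and a mean of 6.07 against 4.48 for the ZNF fragments. Interactions between such a fragment and a ZNF fragment count in both sets here and in the comparisons below.

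**Figure D2:**
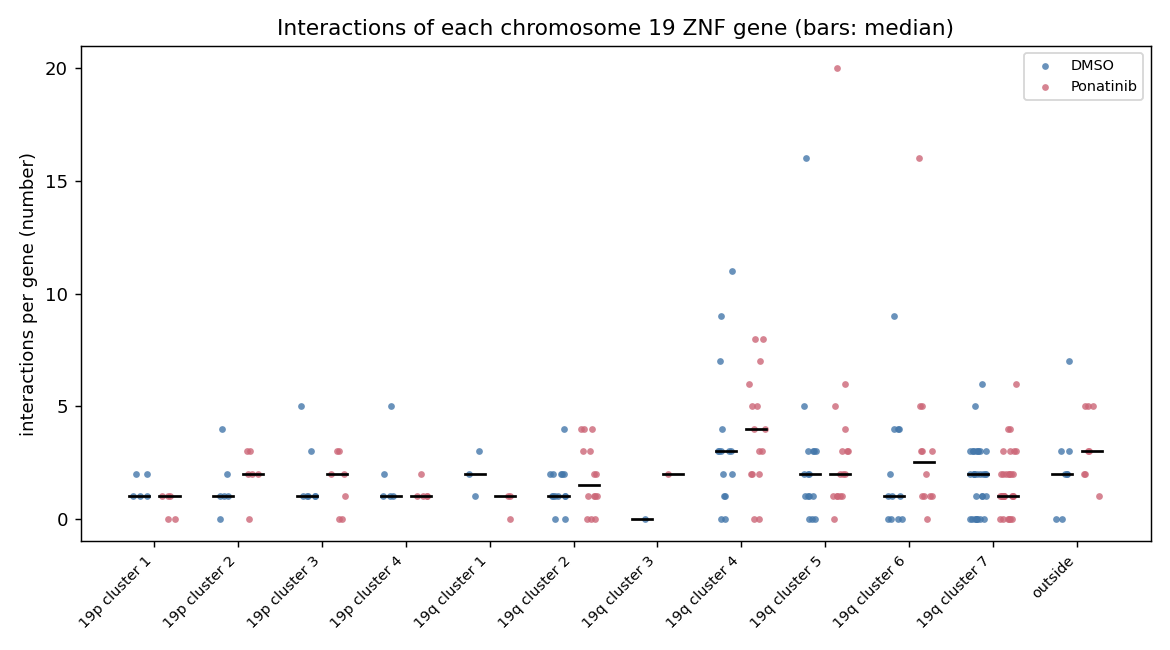
Each point is the number of interactions of 1 ZNF gene in 1 list, grouped by cluster in order along the chromosome, with a bar at the median of the cluster; points are spread sideways at random. ZNF175 in 19q cluster 5, with 16 in DMSO and 20 in ponatinib, and ZNF628 in 19q cluster 6, with 9 and 16, stand above all other genes in ponatinib.

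ZNF175 had 16 interactions with DMSO and 20 with ponatinib, and 10 were common to both lists. Both of its bait fragments lie at the start of 19q cluster 5. In each list 14 partners lay on the low-coordinate side; 2 of these overlapped ZNF175 itself and the others lay before the cluster. That side holds SIGLEC and CEACAM genes, which encode cell surface receptors and adhesion proteins. The 2 highest scores of any ZNF gene joined the fragment at 51586673 to 51595514 to a fragment with an end of CEACAM18 (51474567 to 51484315; 111.65 kb; score 16.36 in DMSO and 13.64 in ponatinib) and the fragment at 51563093 to 51572851, which holds the promoter, to an intergenic fragment (51472886 to 51474566; 94.2 kb; 6.55 and 14.52). Scores are the authors' values and are read within each list. The same intergenic fragment scored 14.41 and 13.52 with the first bait fragment. SIGLEC8, a sialic acid receptor gene of eosinophils, was contacted from both fragments in ponatinib and from 1 of them in DMSO. On the other side ZNF175 had 1 partner in DMSO, which overlapped no gene, and 5 in ponatinib. These 5 overlapped the formyl peptide receptor genes FPR1 or FPR3, and 2 of them also ZNF577.

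ZNF628 had 9 interactions with DMSO and 16 with ponatinib, 6 of them common to both, all on the low-coordinate side of 19q cluster 6 and outside it. One of its fragments also holds ends of NAT14 and SSC5D, so the contacts cannot be ascribed to 1 gene. Partners included fragments at PPP1R12C, a myosin phosphatase subunit gene, at the troponin genes TNNI3 and TNNT1, and at the histone methyltransferase gene KMT5C. The highest score was 11.62, at an intergenic fragment (55214101 to 55215990, 272.7 kb) in the ponatinib list only. Pairs with KMT5C were in both lists from both bait fragments, at 135.5 kb (5.91 in DMSO and 7.27 in ponatinib) and 147 kb (6.26 and 6). Of its 25 listings 64.0% were in ponatinib (42.5 to 82.0%), and of the 36 of ZNF175 55.6% (38.1 to 72.1%), so both intervals hold an equal split. In 19q cluster 6 as a whole there were 21 interactions with DMSO and 37 with ponatinib, 63.8% (50.1 to 76.0%) in ponatinib, and ZNF628 supplied 16 of the 37.

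**Figure D3:**
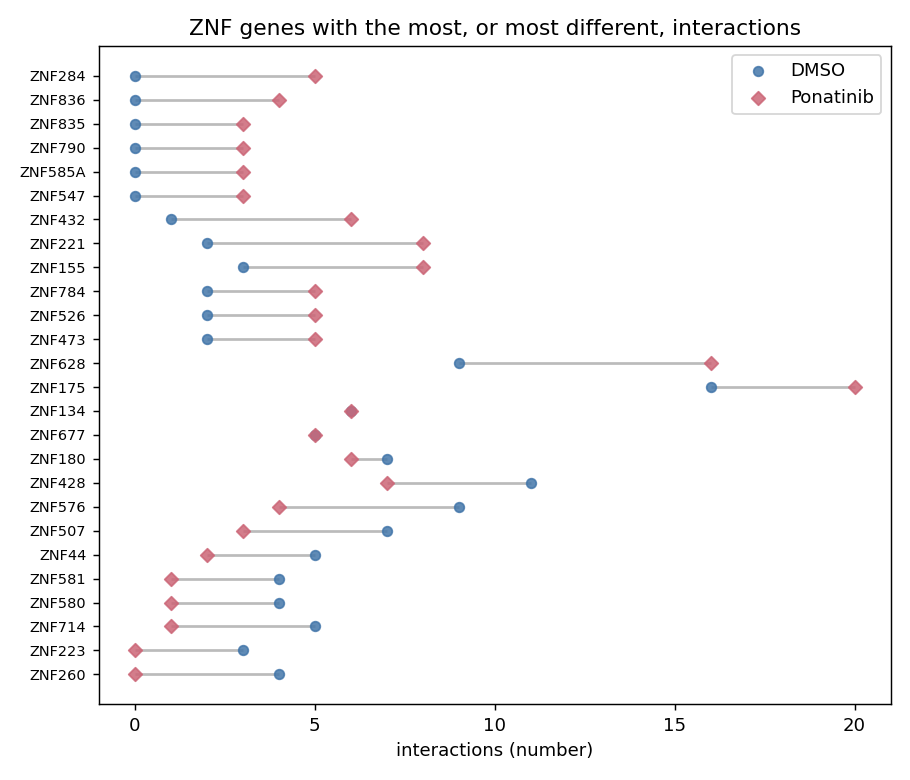
Numbers of interactions in DMSO (circles) and ponatinib (diamonds) are joined by a line for 26 genes, those with at least 10 interactions over both lists, those past 2-fold, and those with at least 3 interactions in 1 list and none in the other. There is 1 library per group, so no error can be drawn; ZNF284 has 0 and 5 at the top and ZNF260 has 4 and 0 at the bottom.

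In 19q cluster 4 (ZNF575 to ZNF180, 43530835 to 44500522), 15 measured genes had 47 interactions with DMSO and 45 with ponatinib, the largest number of any cluster in each list, with 7 shared. ZNF428 had 11 and 7, and ZNF576 had 9 and 4. These neighbours were joined to each other in both lists at 33.55 kb, with scores of 9.89 in DMSO and 7.85 in ponatinib. The ZNF576 fragment also holds ends of IRGQ, PINLYP and XRCC1, and ZNF428 was joined to fragments inside XRCC1, a scaffold gene of DNA single-strand break repair, in both lists (10.37 and 5.27; 7.05 and 6.14). ZNF180, at the far end of the cluster, had 7 and 6 with none shared. All 13 of its partners lay inside the cluster, from 246 to 740 kb away, and 5 in DMSO and 4 in ponatinib overlapped other ZNF genes. Its pair with ZNF224, a repressor gene of the KRAB class, was 402 kb long and scored 11.67 in ponatinib, and was not listed in DMSO.

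Of the 123 ZNF genes, 45 had enough interactions to be judged for a 2-fold difference in number. A gene entered with 5 or more interactions over both lists, and was called when the number in one list plus 1 was at least 2 times that in the other plus 1. Of the 45 ZNF genes with at least 5, 7 had more in ponatinib, 15.6% beside 9.92% of 9787 genes in the whole series, and 6 had fewer, 13.3% beside 6.26%. With 45 genes, each share rests on few calls. Calls differed when list length was taken into account. After scaling ponatinib numbers to the shorter list 4 genes had more and 6 fewer, without ZNF473, ZNF526 and ZNF784. In lists of equal length 5 had more and 7 fewer, without ZNF284 and ZNF784 and with ZNF561 among the latter. The reason for these differences was not tested. The median log2 ratio of the 45 was 0.26, beside 0.08 over the 9787 and 0.22 over 438 other chromosome 19 genes with at least 5. Of those 438, 11.9% had more in ponatinib and 5.94% fewer. At a score of at least 7 the calls were 2 and 1, and with at least 10 interactions over both lists 2 and 2.

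Called with more in ponatinib were ZNF284 (0 in DMSO, 5 in ponatinib), ZNF432 (1 and 6), ZNF221 (2 and 8), ZNF155 (3 and 8), and ZNF473, ZNF526 and ZNF784 (2 and 5 each). ZNF155 and ZNF221 share the fragment at 43979561 to 43988277, so these 7 genes amount to 6 separate groups of fragments. ZNF284, ZNF221 and ZNF155 all lie in 19q cluster 4, and 1 of the ponatinib interactions joined ZNF284 to the shared fragment (92.7 kb, score 5.62). All 5 partners of ZNF284 overlapped other ZNF genes, namely ZNF45, ZNF155 and ZNF221, ZNF226, ZNF235 and ZNF180. For ZNF221 6 of 8 ponatinib partners did, and 1 of the 8 was on chromosome 2. ZNF473 acts in histone mRNA processing; its fragment also holds an end of VRK3, and that of ZNF526 an end of DEDD2.

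Called with fewer in ponatinib were ZNF714 (5 and 1), ZNF580 and ZNF581, which have a fragment in common (4 and 1), ZNF576 (9 and 4), ZNF507 (7 and 3) and ZNF44 (5 and 2). All 5 DMSO interactions of ZNF714 were with other chromosomes. ZNF507 lies outside clusters and was joined in both lists to a fragment with an end of PDCD5, a gene implicated in apoptosis (236 kb; 12.02 in DMSO and 5.21 in ponatinib). Genes with at least 3 interactions in 1 list and none in the other were, besides ZNF284, ZNF836 (0 and 4), ZNF547, ZNF585A, ZNF790 and ZNF835 (0 and 3 each) in ponatinib, and ZNF260 (4 and 0) and ZNF223 (3 and 0) in DMSO. The share of such genes over the whole series was not counted here. ZNF260 had all 4 within 19q cluster 2, with ZNF146, ZNF383 and ZNF568 among the genes reached.

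In both lists more than 50% of the same-chromosome interactions of the ZNF genes lay inside their own cluster, but the ponatinib interval holds 50%. With a cluster taken from the start of its first to the end of its last gene, and both fragment midpoints inside, 106 of 184 same-chromosome interactions in DMSO (57.6%, 50.1 to 64.8%) and 124 of 223 in ponatinib (55.6%, 48.8 to 62.2%) lay within 1 cluster. For the genes that belong to clusters the shares were 64.2% (56.4 to 71.5%) and 62.3% (55.2 to 69.1%). The 57 other bait fragments inside the same spans had 58.2% (49.9 to 66.1%) and 64.2% (55.6 to 72.2%). These intervals overlap those of the ZNF genes in both lists. Among interactions with a score of at least 7 the share within a cluster was 48.8% in DMSO and 50% in ponatinib. At a score of at least 10 it was 44.4% of 9 in DMSO and 18.2% of 11 in ponatinib. Cluster genes had 59 further interactions in DMSO and 72 in ponatinib in which at least 1 of the fragment midpoints lay outside every cluster; these include fragments of ZNF175 and ZNF628 that start before their cluster. Genes outside clusters had 19 and 24 on the chromosome.

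No ZNF gene was joined to the other arm. The counts were 0 of 213 in DMSO and 0 of 240 in ponatinib, with intervals that reach up to 1.72% and 1.53%. Other bait fragments of chromosome 19 gave 0 such pairs in DMSO and 1 in ponatinib. Contacts between different clusters of 1 arm were 0 in DMSO and 3 in ponatinib, all between 19q clusters 6 and 7. They joined the fragment of ZNF470 and ZNF470-DT to one in ZNF606 (1428 kb, score 5.24), ZNF835 to a bait fragment in ZSCAN4 (999 kb, 5.16) and ZNF772 to a fragment in ZNF583 (1075 kb, 5.13). These scores lie just above 5, the lowest in the lists, and none of the 3 is left at a score of at least 7.

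Bait fragments of different ZNF genes were joined by 22 pairs in DMSO and 28 in ponatinib, 45 in all and 5 in both, at a median of 372 kb (33.55 to 1111 kb), and 44 of the 45 lay within a cluster. The remaining pair joined the fragment of ZNF554 and ZNF555 to that of ZNF77, all genes of 19p cluster 1. It was not counted as within the cluster because the midpoint of the ZNF77 fragment lies just past the cluster end. A further 2 pairs joined both fragments of 1 gene, ZNF175 and ZNF134. A fragment here holds either end of its gene: the annotated start is off the fragment for ZNF160, ZNF264, ZNF606 and ZNF773, and ZNF417 has no entry in the promoter table. The fragment of ZNF432 and that of ZNF616, 91.8 kb apart, scored 13.27 in DMSO and 8.60 in ponatinib. Others in both lists were ZNF329 with ZNF530 (554 kb; 9.75 and 7.77) and with ZNF134 (526 kb; 6.49 and 7.91), and ZNF134 with ZNF606 (347 kb; 5.73 and 6.67). ZNF329 was also joined to ZNF805 (911 kb, 7.12) and to the fragment of ZNF549 and ZNF773 (629 kb, 8.08) in DMSO only, and to ZNF543 (834 kb, 5.92) in ponatinib only. In ponatinib only, ZNF264 was joined to ZNF417 (683 kb, 12.1), and ZNF432 to ZNF160 (1056 kb, 9.27) and ZNF347 (1111 kb, 5.34). In DMSO only, ZNF543 was joined to a fragment in ZNF671 (405 kb, 12.57) and ZNF417 to the pheromone receptor gene VN1R1 (459 kb, 12.33). Over all partners on the chromosome, 34.8% in DMSO (27.9 to 42.1%) and 33.6% in ponatinib (27.5 to 40.2%) overlapped a ZNF gene other than those with an end on the bait fragment. Partners that overlapped no protein-coding gene and were no bait made up 11.4% (7.21 to 16.9%) and 15.2% (10.8 to 20.6%).

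Bait fragments stood at both ends of 103 of the 213 interactions in DMSO (48.4%, 41.5 to 55.3%) and 113 of 240 in ponatinib (47.1%, 40.6 to 53.6%). For other bait fragments of chromosome 19 the shares were 38.25% and 37.6%, for those inside the cluster spans 46.4% and 44.1%, and over the whole lists 19.1% and 18.7%. The number of baits within reach was not matched here.

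Contacts of the ZNF genes spanned a median of 263 kb in DMSO (219 to 318) and 315 kb in ponatinib (270 to 347). Other chromosome 19 bait fragments had medians of 156 kb (148 to 165) and 173 kb (165 to 183), and the whole lists 234 and 242 kb. Non-ZNF bait fragments inside the cluster spans had 283 kb (211.5 to 345) and 253 kb (211.5 to 302), with intervals that overlap those of the ZNF genes. From 500 to 1000 kb the ZNF genes had 31 interactions in DMSO (16.8%, 11.7 to 23.1%) and 45 in ponatinib (20.2%, 15.1 to 26.1%), where the other fragments of the chromosome had 6.12% and 5.41%. The fragments inside the cluster spans had 20.3% (14.2 to 27.5%) and 16.1% (10.3 to 23.3%), and the whole lists 12.9% and 13.6%. Beyond 1000 kb they had 4 and 10, none shared. The longest, 2145 kb, was in DMSO. The intervals of the ZNF medians in DMSO and ponatinib overlap. Medians on 19p were 261 kb (192 to 412) and 282 kb (196 to 457), and on 19q 266 kb (212 to 330) and 315 kb (270 to 354).

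**Figure D4:**
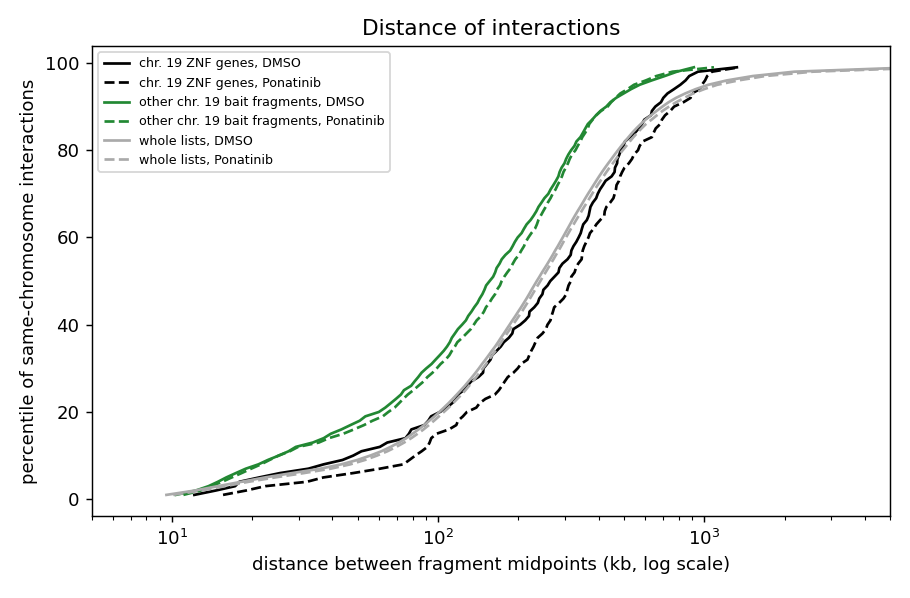
Percentiles of the distance between fragment midpoints (kb, log scale) are drawn for same-chromosome interactions of the ZNF genes (black), other chromosome 19 bait fragments (green) and the whole lists (grey), DMSO solid and ponatinib dashed. The ZNF curves, with medians of 263 and 315 kb, lie to the right of those of the other chromosome 19 fragments, with medians of 156 and 173 kb.

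Scores of the ZNF genes had lower medians than the whole lists. The median was 5.90 in DMSO and 5.91 in ponatinib, and the maximum 16.36 and 14.52. Medians of the whole lists were 6.47 and 6.55, and of other chromosome 19 fragments 6.31 and 6.35. Non-ZNF bait fragments inside the cluster spans had medians of 6 and 6.07, nearer to those of the ZNF genes. A score of at least 10 was reached by 9 of 213 interactions (4.23%) and 11 of 240 (4.58%), beside 14.9% and 16.4% over the whole lists. For the fragments inside the cluster spans these shares were 9.64% and 6.58%. Interactions within clusters had medians of 5.75 and 5.90.

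Few of the interactions were in both lists. The identical pair was found in both for 49, which is 23.0% of those in DMSO (17.5 to 29.2%) and 20.4% of those in ponatinib (15.5 to 26.1%). For other chromosome 19 fragments the shares were 43.4% and 39.4%, and for the whole lists 44.3% and 40.7%. With both ends matched within 10 kb in place of identical fragments, the shares of the ZNF genes were 39.91% and 40%. The other sets were not matched in this way, so these 2 values have no counterpart among the shares above. Under a score of 7 the shares of identical pairs were 17.6% and 15.1% for the ZNF genes and 29.4% and 25.9% for the whole lists. At a score of at least 7, 41.7% of the 48 in DMSO (27.6 to 56.8%) and 36.1% of the 61 in ponatinib (24.2 to 49.4%) of the ZNF interactions were found in the other list, beside 66.3% and 61.1% over the whole lists. Bait fragments inside the cluster spans without a ZNF end had shares of identical pairs of 22.9% (16.7 to 30.0%) and 25% (18.3 to 32.7%), beside the 23.0% and 20.4% of the ZNF genes. The shared pairs were shorter, with a median of 135.5 kb, than those in 1 list only, with 302 kb in DMSO and 348 kb in ponatinib. ZNF175 and ZNF628 held 16 of the shared pairs between them. By cluster the number shared ran from 0 in 19q clusters 2 and 3 to 13 in 19q cluster 5.

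**Figure D5:**
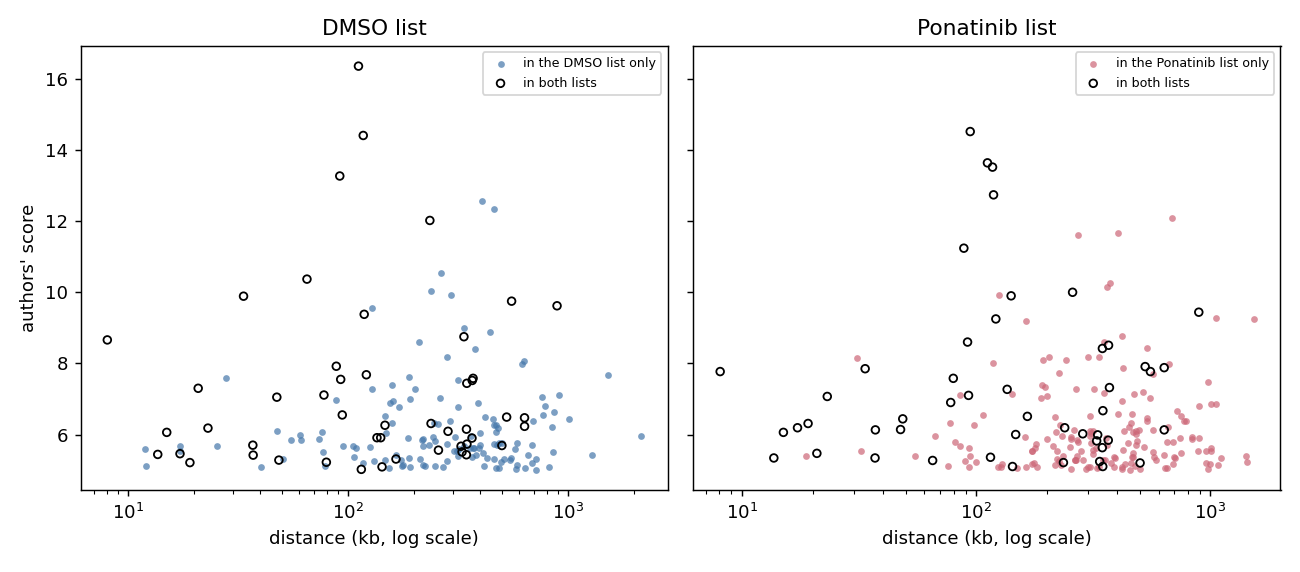
Each point is a same-chromosome interaction of a ZNF gene, plotted by distance (kb, log scale) and the authors' score, in DMSO on the left and ponatinib on the right; open circles are the 49 pairs found in both lists. Shared pairs have a median distance of 135.5 kb, against 302 kb for pairs in DMSO only and 348 kb for pairs in ponatinib only.

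Interactions with other chromosomes numbered 29 of 213 in DMSO (13.6%, 9.31 to 18.965%) and 17 of 240 in ponatinib (7.08%, 4.18 to 11.1%). Other fragments of chromosome 19 had 6% (4.89 to 7.28%) and 6.64% (5.52 to 7.90%). The fragments inside the cluster spans had 7.23% (3.79 to 12.3%) and 9.87% (5.63 to 15.8%), with intervals that overlap those of the ZNF genes in both lists. The whole lists without the rearranged chromosomes 9, 13 and 22 had 3.68% and 3.34%. Of the 46 listings of ZNF genes, 37.0% were in ponatinib, with an interval of 23.2 to 52.5% that holds 50%. None was shared, and the other fragments of chromosome 19 and those inside the cluster spans also shared none. In the whole lists without chromosomes 9, 13 and 22, 4.04% in DMSO and 4.12% in ponatinib were shared. The listings of the ZNF genes were scattered, over 22 ZNF fragments and 16 partner chromosomes in DMSO and 17 fragments and 13 chromosomes in ponatinib. One partner in DMSO and none in ponatinib overlapped a ZNF gene, ZNF605 on chromosome 12, met by ZNF677 with a score of 5.08. The highest scores were 8.90 for ZNF497 in ponatinib and, in DMSO, 8.80 for the fragment of ZNF540 and ZNF793, 8.50 for that of ZNF568 and ZNF829, 8.29 for ZNF256 and 7.99 for ZNF714, the last with a fragment in the phosphatase gene PTPRO. ZNF714 alone held 5 of the 29, and without it the share in DMSO was 11.5%.

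The proteins that KRAB zinc fingers work through were described by a list of 30 cofactor genes, of which 23 had a listed bait fragment. Of these, 12 had more interactions in ponatinib, 7 fewer and 4 the same, beside 6590, 5112 and 2019 of all 13721 genes. Their median log2 ratio was 0.06, beside 0 over all genes. TRIM28, the corepressor itself, had 1 in each list on a fragment it shares with CHMP2A, UBE2M and ZBTB45. SETDB1, the methyltransferase, had 2 with DMSO and 3 with ponatinib. Of the 16 with at least 5, 3 were called with more in ponatinib (18.75%, beside the 9.92% above). They were CBX5, a heterochromatin protein 1 gene on a fragment with HNRNPA1 (7 and 18), MPHOSPH8, a subunit of the HUSH silencing complex (3 and 8), and the chromatin remodeller gene SMARCAD1 (2 and 5). DNMT3A, a DNA methyltransferase gene, was called with fewer (5 and 1), which is 6.25% beside 6.26%. The others called in neither direction included CBX3 (23 and 23) and CHD4 (24 and 25).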

How the data were processed

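Promoter-capture Hi-C was done on 1 DMSO and 1 ponatinib library of K562 cells. The authors deposited for each a list of fragment pairs with a score; how it was defined, called and limited was not given in the sources used here, and its lowest value is 5. Coordinates are hg38, the build named in the submitters' processing notes. Depth is unknown.

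Pairs were taken as unordered. A gene of the RefSeq table (GRCh38.p14) was placed on every listed bait fragment with one of its ends; 115 ZNF genes had 1 fragment and 8 had 2. The promoter table, which gives strand, put the annotated start on such a fragment for 93, off it for 17, and lacked 13. Pairs with alternate contigs were not counted as between chromosomes. Arms were split in the longest gene-free stretch, 24129968 to 29205320. Counts, medians and exact intervals were computed with Python 3.11.15, pandas 2.3.3 and scipy 1.17.1. The call rule was run on simulated gains, planted only in genes with more interactions than most ZNF genes have. That simulation therefore does not show how the rule performs at the low numbers of most ZNF genes, and its false calls are not reported here.

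The genes and lists were chosen with earlier results of these data known. Named genes are the 10 with the most interactions, the 5 highest and 5 lowest ratios, those at the 5 highest scores of each kind of contact, those in 1 list only, the cofactor list, and other genes on the same fragments. Others in the text were chosen after their values were seen. Alternatives were other score limits, list lengths, gene assignments, cluster gaps, pseudocounts, minimum numbers and matching of ends.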

Additional observations from a re-analysis of the deposited data

How the results depend on the processing

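Of 84 recomputed values 65 stayed close to those reported and 19 moved. Close meant inside the reported interval for shares and medians, and within a set ratio for numbers of called genes. Some values could not move: a score limit cannot add pairs between arms, and lists of equal length left the DMSO list unchanged. The 65 are therefore no measure of stability. At a score of at least 7, genes past 2-fold were 2 with more and 1 with fewer in ponatinib, the share within a cluster was 48.84% in DMSO, and the ponatinib median was 262.5 kb. At a score of at least 10 these were 0 and 0 genes, 44.44% in DMSO and 18.18% in ponatinib, and 257.8 kb. With at least 10 interactions per gene the calls were 2 and 2, and after scaling ponatinib numbers to the shorter list 4 had more and 6 fewer; in lists of equal length 5 had more and 7 fewer. A cluster gap of 1 Mb gave 63.68% within a cluster in ponatinib, and fragments with no end of a gene outside the ZNF set 65.29%. Without baits at the other end the DMSO median was 190.6 kb. Matching both ends within 10 kb raised the shared percentages to 39.91% and 40%, and requiring the transcription start on the fragment lowered them to 16.57% and 15.31%. The settings on the transcription start and on ends of other genes were chosen after seeing the data, as was the keeping of pairs with ZNF baits in the comparison sets. Without those pairs, fragments inside the cluster spans had 49.6% and 56.0% within a cluster and 36.4% and 31.5% with baits at both ends. The cause of these shifts was not tested. No paired analysis was possible because each group is 1 library. Few interactions per gene and an unknown read depth limit every comparison.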

Other observations

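Of 18 other chromosome 19 genes with symbols beginning with ZFP, ZIM, ZIK, ZSCAN or ZBTB, 10 had a listed bait fragment. They were taken by symbol only, and the class of zinc finger was not checked. Among them 2 had more interactions in ponatinib, 5 fewer and 3 the same, beside 6590, 5112 and 2019 of all 13721 genes. ZBTB32, on a fragment with the methyltransferase gene KMT2B, had 4 with DMSO and 9 with ponatinib, and ZFP36, an RNA-binding regulator of mRNA decay on a fragment with PLEKHG2, had 7 and 6. The ZIM3 fragment, which also holds an end of USP29, had 3 and 4.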
